A study of Arabidopsis thaliana with 2 samples.

Results

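The day-length module examined here consisted of 8 Arabidopsis thaliana genes chosen by locus: the F-box genes FKF1 (AT1G68050), ZTL (AT5G57360) and LKP2 (AT2G18915), GI (AT1G22770), and the Dof-type genes CDF1 (AT5G62430), CDF2 (AT5G39660), CDF3 (AT3G47500) and CDF5 (AT1G69570). Of the 8, 4 were among the 1602 genes to which the authors paired a binding region of LHY, a MYB protein that acts in the circadian clock. These were FKF1, GI, CDF1 and CDF5. ZTL, LKP2, CDF2 and CDF3 were not listed.

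The data came from chromatin immunoprecipitation followed by sequencing (ChIP-seq) of Col-0 seedlings aged 2 weeks, harvested 2 h after dawn. An antiserum raised against LHY gave 1 library, made from 4 pooled ChIP samples, and the comparison was 1 library of input DNA from matching samples. Both libraries were from the same ecotype, and neither plants lacking LHY nor other times of day were analysed here. With 1 library a group, no value below carries a replicate error and no test was made. The tissue was whole seedlings, so cells in which a site was bound and cells in which it was not cannot be told apart, and a peak list gives no expression values against which the tissue label could be checked.

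FKF1, ZTL and LKP2 encode blue-light receptors that carry a LOV domain, an F-box and kelch repeats, and that direct target proteins to degradation through SCF ubiquitin ligases. GI, a large plant-specific protein, binds these receptors in blue light. In long-day afternoons FKF1 and GI remove the CDF proteins, which are transcriptional repressors of the flowering gene CONSTANS (CO) and of its target FT, and flowering follows. ZTL acts mainly in the clock, where it degrades TOC1 and PRR5. LHY is itself a morning factor of that clock, known for repressing genes expressed in the evening.

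Each peak was described by the authors with a −log10 q, the peak caller's measure of evidence, and a position in bp from the transcription start site (TSS) of the paired gene, negative when upstream. A −log10 q grows with read depth as well as with enrichment, and is therefore used here only to compare peaks within the list. The sums, gaps and factors given below describe these values and are not amounts of binding. A phase, in hours after subjective dawn in constant light, comes from the Diurnal database, per the file headers, and is no measurement of this series. The lowest −log10 q in the list was 2.31 and the median of the strongest peak per gene was 10.3. Depth is unknown: reads, genome coordinates and sequences were not analysed here, and no binding motif was looked for.

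Among all 27444 nuclear protein-coding genes of the reference table, 1477 (5.38%) were listed, and 3.83% had a peak in a promoter window that began 1000 bp before the TSS and ended 200 bp after it. All 4 listed members had every one of their peaks in that window, 7 peaks in all. Since the members were picked with earlier results of these data known, the 4 of 8 is a count beside that background and no evidence of preference. The 4 strongest peaks spanned a wide range, from 21.7 to 260, and had a median of 94.0.

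Among the LOV F-box genes FKF1 was the only one listed. It had a single peak, with a −log10 q of 260 at −273 bp, and this was the strongest of all 1762 pairs of gene and peak. A peak paired with several genes was counted at each of them, here and in later counts of peaks. The next gene in the list, CBF1, reached 202, a gap of 57.8. ZTL and LKP2 had no listed peak. In the authors' annotation the closest protein match of FKF1 was ZTL, so the gene with the strongest peak and its closest match lay on opposite sides of the listing threshold. Such splits were common in the list: for 1312 listed genes with a named closest match, that match was also listed in 193 cases (14.7%). The descriptions of 12 listed genes mentioned kelch proteins or domains. After FKF1 the strongest of these was BT4 (AT5G67480), a BTB and TAZ domain protein gene, with 56.2 at −2 bp, and apart from FKF1 only AT1G23390, with a peak at −1164 bp, and AT3G59940, with 5.62 at −882 bp, also had an F-box in the description.

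GI had 2 peaks. The stronger, with a −log10 q of 162, lay at −861 bp and was the fifth strongest peak of the list. The weaker, with 66.0, lay at −33 bp, next to the TSS, and ranked 69 among all peaks. Taken alone, that weaker peak was stronger than the strongest peak of CDF1 or CDF5. When the −log10 q values of all peaks of a gene were added, GI reached 228 and moved from rank 5 to rank 2, behind FKF1.

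**Figure D1:**
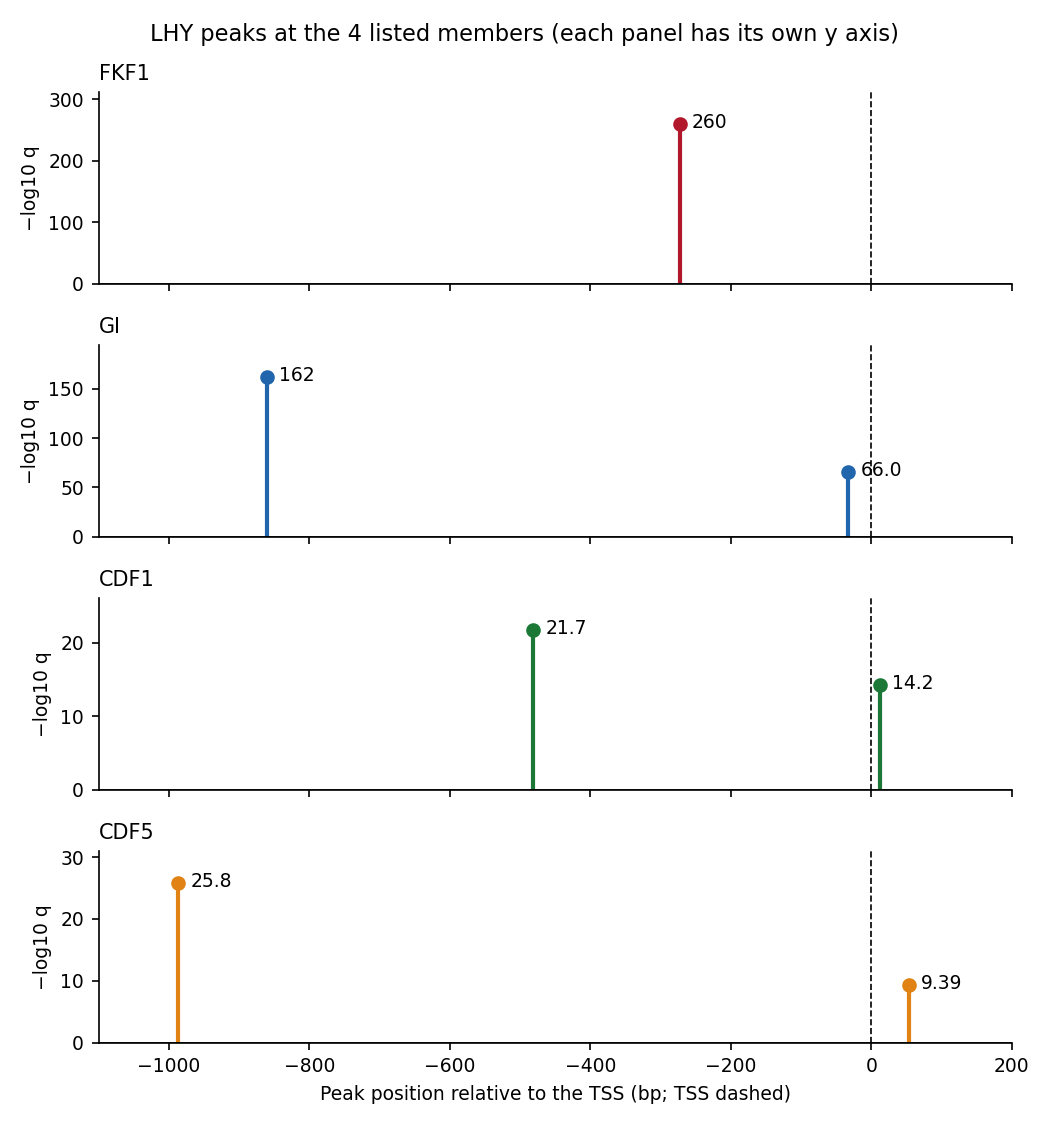
Position of each LHY peak relative to the TSS (x axis, bp) and its −log10 q (y axis, from 0, a separate scale for each gene) at FKF1, GI, CDF1 and CDF5; each stem is 1 peak from the 1 pooled library. FKF1 has 1 peak of 260 at −273 bp, while GI, CDF1 and CDF5 each have a stronger peak between −987 and −481 bp and a weaker one between −33 and 53 bp.

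The repressor genes CDF1 and CDF5 were listed with much lower values than FKF1 and GI. CDF1 had 21.7 at −481 bp and 14.2 at 12 bp downstream of the TSS. CDF5 had 25.8 at −987 bp and 9.39 at 53 bp downstream. By the strongest peak CDF5 ranked 261 and CDF1 322 of 1602 genes, with 83.7% and 79.4% of listed genes weaker. Added over their peaks, the values were 35.2 for CDF5 and 35.9 for CDF1, at ranks 180 and 174, so the order of these genes turned with the way strength was counted and with no replicate it cannot be judged. The weaker peak of CDF5 was the only one of the 7 below the median of all peaks, 10.2.

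Their paralogues CDF2 and CDF3 were not listed, although CDF3 is the closest protein match of CDF1 in the authors' annotation. For CDF5 the closest match was AT1G26790, a further Dof-type gene, and the reverse also held. Both of that pair were listed: AT1G26790 had 1 peak, with 15.2 at −3 bp, and no phase. CDF5 and AT1G26790 thus both had a peak within 60 bp of the TSS. In the list of 49 pathway genes used below, AT1G26790 was entered as CDF6. The other CDF-related Dof genes entered there, CDF4 (AT2G34140) and COG1 (AT1G29160), had no listed peak. Like that of CDF5, these symbols could not be checked against the reference table. The symbol CDF1 also stands for an unrelated gene, AT5G23040, in the reference table, and members were matched by locus alone.

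The list held 7 genes described as Dof-type zinc finger proteins, a plant family of transcription factors. HCA2 (AT5G62940), a regulator of cambium activity, had the strongest peak (64.6 at −604 bp). OBP4 (AT5G60850) followed with 61.6 at −3641 bp and 21.7 at −61 bp. Both values were also listed for the adjoining locus AT5G60840, at −2318 and −5898 bp, so the stronger peak lay nearer to that locus. CDF5, CDF1 and AT1G26790 came next in that order, ahead of AT2G28810 (8.50 at −1326 bp) and DOF2.4 (AT2G37590, 6.001 at −870 bp). CDF1, CDF5 and OBP4 each had 2 peaks and a phase before midday, at 1 h, 3 h and 3 h. AT2G28810 had a phase of 14 h. No phase was given for HCA2, AT1G26790 or DOF2.4, which could therefore not be compared in phase.

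**Figure D2:**
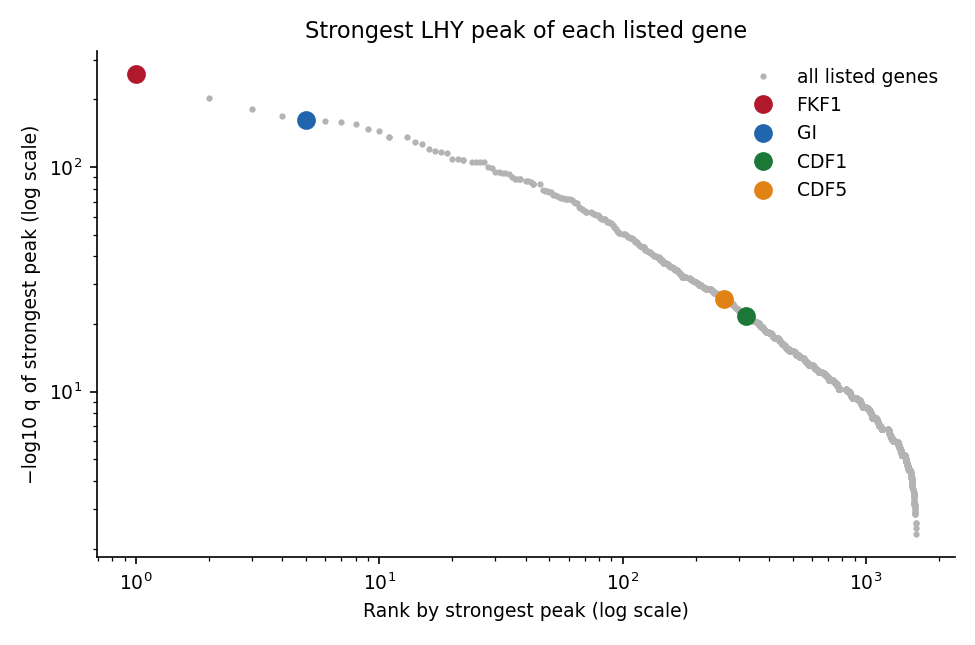
Strongest −log10 q of each of the 1602 listed genes (y axis, log scale) against its rank (x axis, log scale), with FKF1, GI, CDF1 and CDF5 in colour and all listed genes in grey. FKF1 is at rank 1 and GI at rank 5, whereas CDF5 and CDF1 are at ranks 261 and 322.

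The arrangement of peaks was alike at GI, CDF1 and CDF5. Each had its stronger peak upstream and its weaker one within 60 bp of the TSS, with spacings of 828, 493 and 1040 bp. The stronger −log10 q exceeded the weaker by a factor of 2.46 at GI, 1.53 at CDF1 and 2.75 at CDF5. In the whole list 133 genes had exactly 2 peaks, with a median spacing of 1149 bp (quartiles 611 and 1864 bp) and a median factor of 1.98 between the values. The stronger peak was the one farther from the TSS at 72 of the 133 (54.1%), and both peaks were in the promoter window at 27 (20.3%). Some of the 133 were adjoining genes listed with the same 2 peaks, such as SMZ and TON1A, and such peaks were counted at both genes. The peaks of GI, CDF1 and CDF5 were not shared with a neighbour, so this background is not fully like for like.

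The combination of a weaker peak within 60 bp of the TSS and a stronger one at least 400 bp upstream was found at 7 of those 133 genes (5.26%). These distances were chosen after the members' values had been seen, so the count only describes them. Beside GI, CDF1 and CDF5 the 7 included AT4G33980, with 56.9 at −1227 bp and 43.8 at −54 bp, and AT3G49790, with 40.0 at −1396 bp and 4.50 at 40 bp. GPT2 (AT1G61800), a glucose-6-phosphate transporter of plastids, had 20.6 at −1778 bp and 5.23 at 1 bp. IP5PII (AT4G18010), an inositol phosphatase, had 12.2 at −3312 bp and 6.80 at 2 bp. CDF1 had the shortest spacing of the 7, and GI had the highest values for both peaks. With a limit of 100 bp in place of 60 bp the count rose to 15. CBF1 was then included, with 202 at −772 bp and 10.3 at −64 bp, and its stronger value exceeded that of GI. OBP4, with its weaker peak at −61 bp, also entered.

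**Figure D3:**
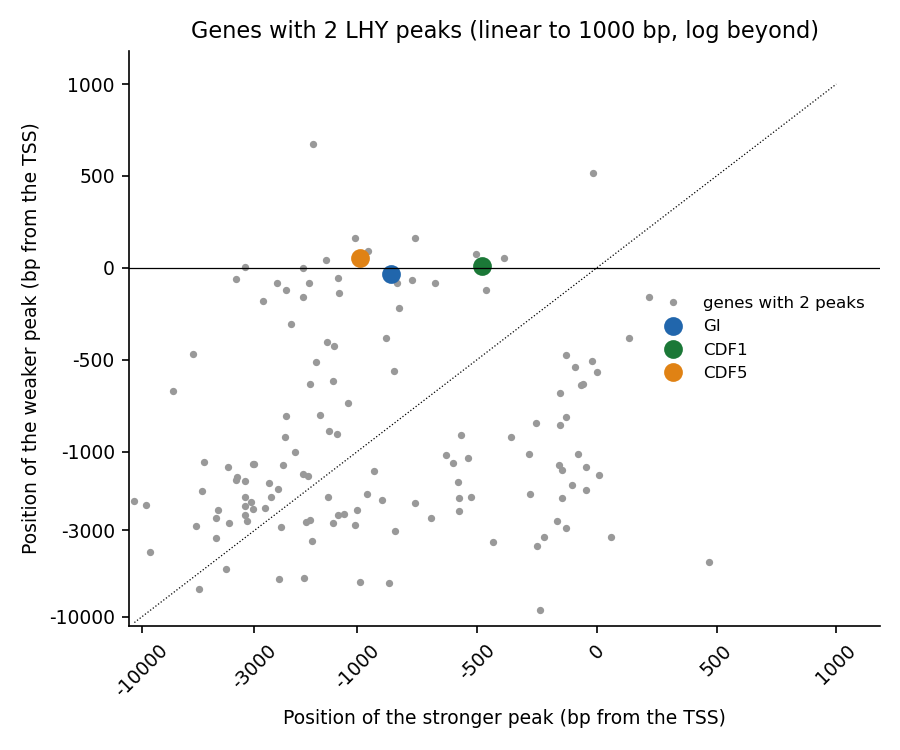
Position of the weaker peak (y axis) against that of the stronger peak (x axis), both in bp from the TSS and on axes that are linear to 1000 bp and logarithmic beyond, for the 133 genes with 2 peaks; GI, CDF1 and CDF5 are in colour and the dotted line marks equal positions. The 3 members lie on the left with their weaker peak at the level of the TSS, at −33, 12 and 53 bp.

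More than 1 peak was uncommon. It was found at 146 of 1602 genes (9.11%), at 74 of 610 genes with a phase (12.1%) and at 72 of 992 genes without one (7.26%). Among the 10 genes with the highest values, 3 had more than 1 peak, GI included, while FKF1 had 1. Within 60 bp of the TSS lay 241 of all peaks (13.7%), with a median −log10 q of 11.2, and 3 of the 7 member peaks. Because the 60 bp limit was chosen after the member peaks had been seen, the 3 of 7 only describes them. The value at GI, 66.0, was well above that median, and those at CDF1 and CDF5 lay on either side of it.

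All 4 listed members had a phase, against 610 of 1602 listed genes (38.1%), and the phases fell into an early and a late pair. Since the members were picked as a day-length module with earlier results known, a phase at all 4 only describes them. The repressor genes CDF1 and CDF5 peaked in the subjective morning, at 1 h and 3 h, and GI and FKF1 later in the subjective day, at 7 h and 10 h. No phase was available here for ZTL, LKP2, CDF2 or CDF3, because the authors gave phases only for listed genes, so listed and unlisted paralogues could not be compared in phase. FKF1 had the highest −log10 q of the 42 genes with a phase of 10 h, and GI the highest of the 57 genes at 7 h. CDF1 was the fourth of 13 genes at 1 h and CDF5 the fourteenth of 32 at 3 h. The median strongest peak was 22.6 at 10 h, 14.6 at 7 h, 10.8 at 1 h and 18.7 at 3 h, so each of the 4 exceeded the median of its own hour.

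**Figure D4:**
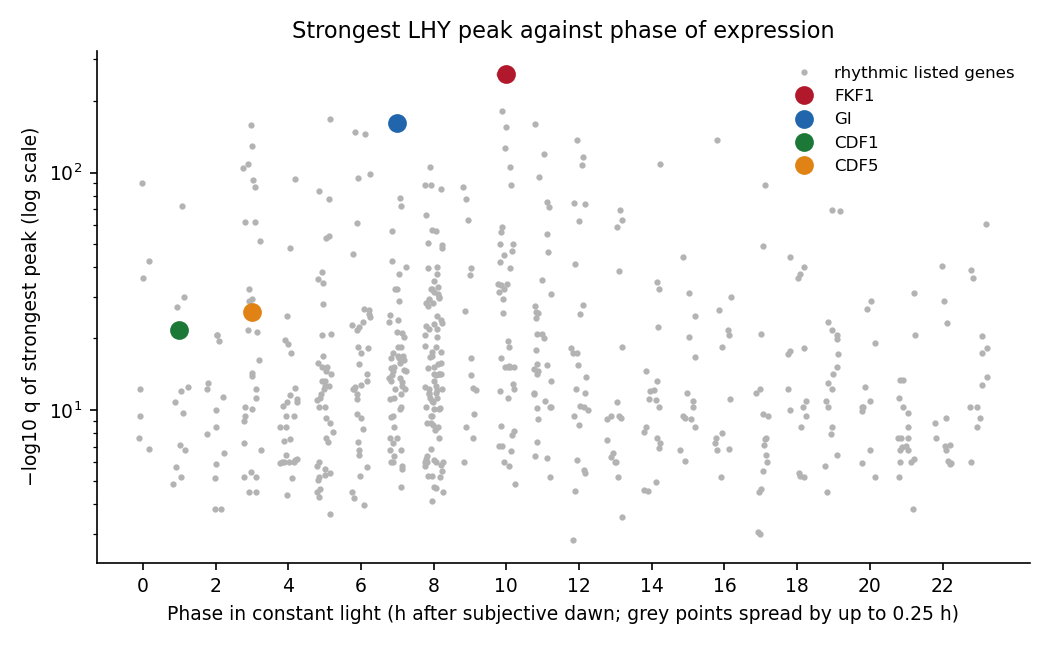
Strongest −log10 q (y axis, log scale) against phase of expression in constant light (x axis, h after subjective dawn; grey points are spread sideways by up to 0.25 h) for the 610 listed genes with a phase. FKF1 and GI top their hours of 10 h and 7 h, and CDF1 and CDF5 lie at 1 h and 3 h in the body of the points.

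As the listed genes most like each member, the genes of the same phase next above and next below it in −log10 q were taken, or the 2 next below where none was higher. For FKF1 these were TOC1 (AT5G61380), the evening repressor of morning clock genes, with 182 at −192 bp, and BBX8 (AT5G48250), a B-box zinc finger gene with a CCT domain, with 156 at −267 bp, only slightly nearer the TSS than the FKF1 peak at −273 bp. Each of the 3 had a single peak. For GI they were the pseudo-response regulator gene PRR5 (AT5G24470, 78.0 at −1003 bp) and AT1G75190, of unknown function (72.1 at −760 bp), both with 2 peaks like GI. The peak of 72.1 was also paired with the adjoining locus AT1G75180, at −293 bp.

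For CDF1 the gene next above was LNK2 (AT3G54500), a coactivator gene of the clock, with 27.2 at −147 bp, and the one next below was PUP10 (AT4G18210), a purine permease gene, with 12.4 at −102 bp. For CDF5 the gene next above was PSAE-1 (AT4G28750), for a photosystem I subunit, with 27.3 at −46 bp, and the one next below was AT4G17810, a C2H2 zinc finger gene, with 21.7 at −988 bp. This last position was nearly that of the stronger CDF5 peak, at −987 bp, and the same value was also listed for the adjoining locus AT4G17800. Likeness of value, position or phase in 1 library was not tested.

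Peaks had been paired with the closest gene facing away, so a peak beside an unlisted member could have been credited to another gene. Genes up to 2 places away on either side were therefore looked up, 32 in all. For the 4 unlisted members, 0 of 16 such neighbours were listed. The gene order came from a TAIR10.1 gene table, whereas the authors used TAIR9. Any neighbour absent from TAIR9 could not have been listed, and whether noncoding loci such as AT5G05995, 2 places from CDF2, were in it was not checked. With 5.38% of protein-coding genes listed, few of 16 would be listed in any case, so the 0 says little. For the 4 listed members, 1 neighbour was listed, AT1G22750, which lies 2 places from GI and had 7.04 at −90 bp, a value not shared with GI. No source used here states the threshold of the peak caller, so weak binding at ZTL, LKP2, CDF2 or CDF3 was not detectable in this list and is not shown to be absent.

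Many −log10 q values in the list recurred: 1044 of 1762 pairs of gene and peak (59.3%) had a value found at least at 1 other pair. The values of FKF1, of both peaks of GI and of the stronger peak of CDF5 were found nowhere else. The stronger CDF1 value recurred at 13 other pairs and its weaker one at 10, and the weaker CDF5 value at 32. Some of the 13 were the same peak paired with adjoining genes, such as SMZ and TON1A. At 8 other genes the stronger CDF1 value was that of the strongest peak, and CDF1 tied with them at rank 322. At the remaining pairs, SMZ and TON1A among them, it was the value of the weaker peak.

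Other genes of photoperiodic flowering and of the proteins that act with the module were looked up from a list of 49, of which 46 had a symbol that went with the locus in the reference table. Of the 46, 17 were listed (37.0%) and 13 had a promoter peak. The 7 clock genes among them gave 6 of the 17. That most of the 7 are listed was known from earlier results on these data, and without them 11 of 39 were listed (28.2%), beside the 5.38% of all protein-coding genes. The list was drawn up with those results known and is no independent support for a preference.

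The output genes of the module were not listed: CO and the florigen genes FT and TSF had no peak. The 4 bHLH activators of CO, FBH1 to FBH4, were not listed either, nor were the NF-Y partners of CO in the list (0 of 5) or CIB1, a cryptochrome-interacting activator of FT. Of 6 genes whose products control CO stability, SPA1 had a peak (7.64 at −357 bp), and COP1, SPA2, SPA3, SPA4 and HOS1 were not listed. TPL, the corepressor gene whose product works with CDF1, had 5.54 at −779 bp.

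Of 7 genes for repressors of FT, 4 were listed. SMZ, an AP2-type repressor, had by far the strongest value, 137 at −1664 bp, with a further peak of 21.7 at −2584 bp, both outside the promoter window, and a phase of 16 h. Both values were also listed for the adjoining gene TON1A, at −3323 and −2403 bp, so they are not particular to SMZ. TEM1 had 22.8 at −743 bp, FLC had 19.5 at 21 bp downstream of the TSS, and SNZ had 9.08 at −522 bp. SVP, TEM2 and TOE1 were not listed, so TEM1 and TEM2 were split like the paralogues of the module. Among the floral integrators SOC1 (10.3 at −750 bp) and AP1 (6.80 at −136 bp) were listed and FD was not.

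Of 4 cryptochrome and phytochrome genes, 2 were listed. CRY2 had 14.1, above the median strongest peak of 10.3, at 25 bp downstream of the TSS, and a phase of 8 h. CRY1 had 4.50 at −7000 bp, and PHYA and PHYB were not listed. Of 4 genes for SCF subunits that partner the F-box proteins, SKP1 had 8.50 at −1967 bp, and ASK2, CUL1 and RBX1 had none. HSP90.2, for a chaperone that stabilises ZTL, was not listed.

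The clock genes tied to the module had high values. TOC1, degraded through ZTL, is given above. PRR5, another ZTL target, had a second peak of 77.1 at −2255 bp beside the one at −1003 bp. PRR7 (98.9 at −125 bp) and PRR9 (93.1 at −153 bp), whose products repress CDF genes in the daytime, and the evening complex genes ELF4 (107 at −76 bp) and ELF3 (62.7 at −19 bp) were listed. LUX was not, but AT3G46630, the locus next to it, had 148 at −267 bp, the ninth highest value among genes. Of the 29 unlisted pathway genes, 6 adjoined a listed gene: LUX, TOE1, SPA3, FBH3, NF-YC9 and HSP90.2. Whether a peak paired with such a neighbour belongs to the unlisted gene was not tested. The share of all unlisted genes that adjoin a listed gene was not computed, so the count has no background. FKF1 exceeded all 6 listed clock genes in −log10 q, GI exceeded all but TOC1, and CDF1 and CDF5 were below all of them.

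**Figure D5:**
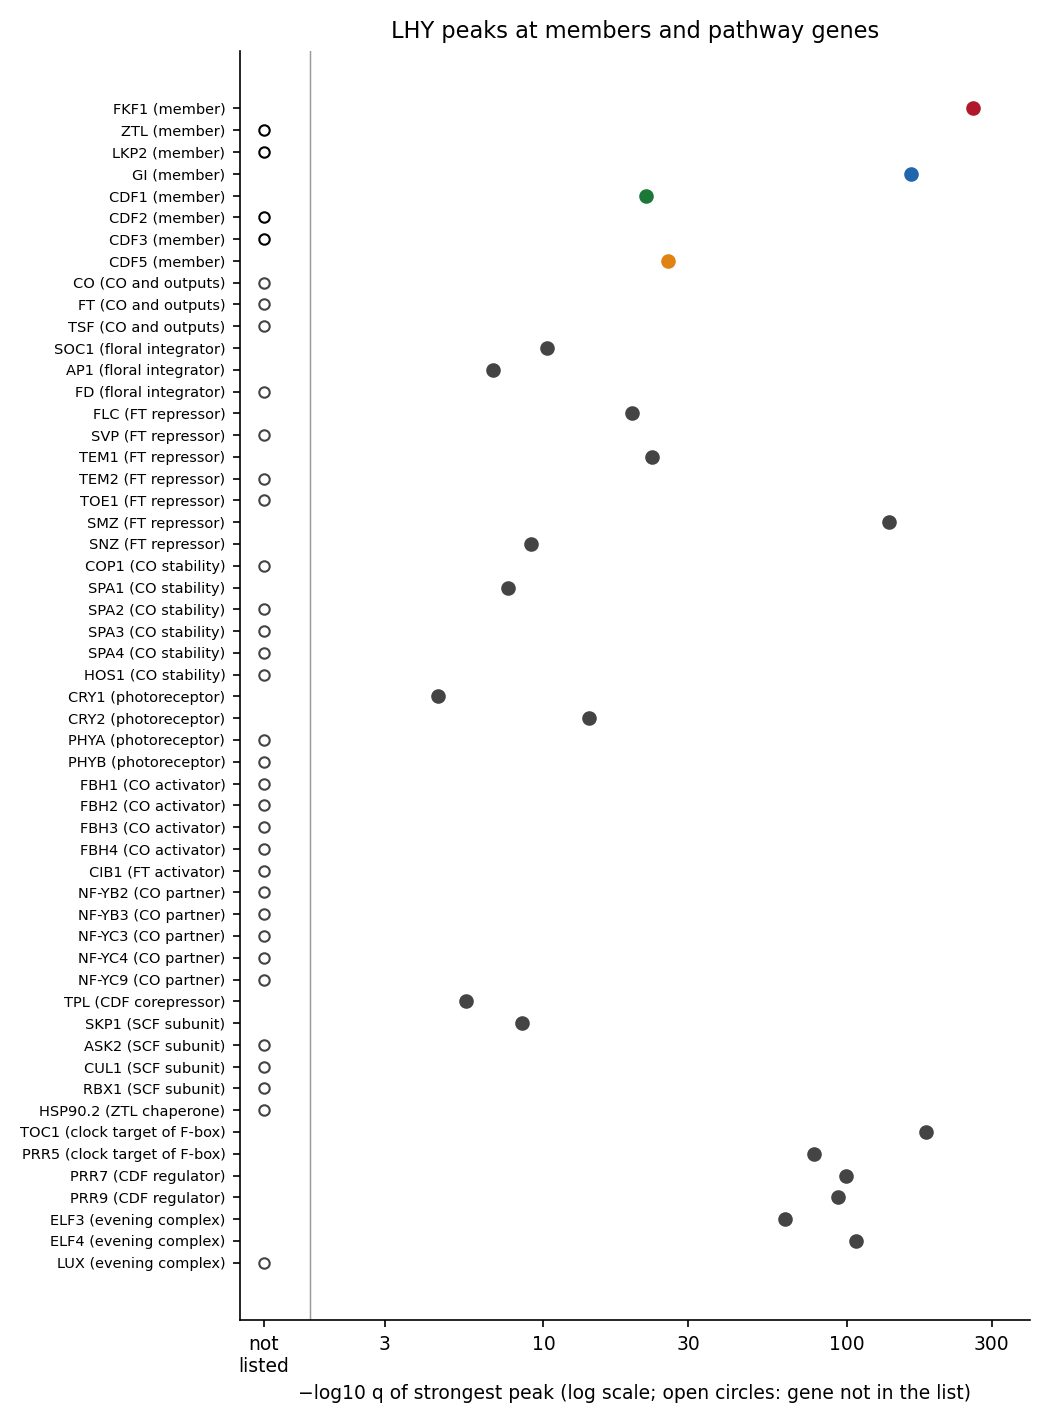
Strongest −log10 q (x axis, log scale) of the 8 members and of the 46 matched pathway genes, with the role of each gene in brackets; open circles at the left mark genes not in the list. FKF1 and GI lie with the clock genes at the right, CDF1 and CDF5 lie near TEM1 and FLC, and CO, FT and TSF are among the open circles.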

How the data were processed

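LHY ChIP-seq and input DNA were each represented by 1 library, without replicates. Reads were processed with Bowtie, MACS2 (version 2.0.10.09132012) and TAIR9, per the submitters' processing notes. The Bowtie version and the peak threshold were not stated there. The deposited table gives, per the file headers, the −log10 q of up to 4 peaks a gene (another header line calls them −log10 of the p-value), their position from the TSS, and a phase that the authors retrieved from Diurnal (cut-off 0.8). Whether positions mark summits or centres of peaks was not stated.

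Of 1602 loci, 1596 were found in a TAIR10.1 gene table, used for symbols, biotypes and gene order only. Symbols could not be checked for CDF5, which was matched by locus, and 3 pathway genes (CDF4, CDF6 and COG1) were left out for the same reason. The script was tested on simulated data. Ranks give tied genes the lowest number. The closest protein match and the Dof and kelch families were read from the functional description in the authors' table.

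Named genes were all members, listed pathway genes, the genes of the same phase next above and below each listed member in −log10 q, and Dof-type genes; kelch genes and the genes sharing the peak arrangement were named after their values were seen. The members and lists were chosen with earlier results of these data known. Motif searches and protein identities need sequences, which were not used here. Alternatives covered the peaks counted, the window, the background and the measure of strength. Python 3.11.15, NumPy 2.4.6, pandas 2.3.3 and Matplotlib 3.10.9 were used.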

Additional observations from a re-analysis of the deposited data

How the results depend on the processing

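Of 14 alternative values, 8 were identical to the reported one and 12 were within 1.5 times of it. The 4 listed members stayed at 4 with peaks at or above the median −log10 q, with the promoter window alone, without peaks shared by neighbouring genes, and with windows of 500 or 3000 bp upstream. Every member peak lay in the promoter window and none was shared, so the promoter, 3000 bp and unshared settings could not change this count. With 500 bp upstream, GI and CDF5 stayed only through their weaker peaks, at −33 and 53 bp. The latter, with 9.39, was below the median of all peaks. FKF1 kept rank 1 when peaks were added. Its rank among protein-coding genes alone was fixed, since it ranked 1 among all genes. Several of the 8 identical values are therefore no sign of robustness. Pathway genes with a peak numbered 11 at or above the median (against 17; fewer peaks enter by construction), 13 in the promoter window and 18 by locus alone. The background share was 4.19% among all 38094 annotated genes. Genes with a weaker peak at the TSS and a stronger one upstream numbered 15 with a limit of 100 bp, against 7, and 8 with the stronger peak at least 300 bp upstream; these were chosen after seeing the data, and the wider limit admits more peaks by construction. The alternatives for the evening element were not run, since they need sequences. Depth is unknown, 1 library a group gives no replicate error, and a gene missing from the list is not shown to be unbound. No paired analysis was possible because there was only 1 library for LHY and 1 for input.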
